A study of Mus musculus with 51 samples.

Results

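The genes described here encode Il7r and the related cytokine receptor chains Il4ra, Il15ra and Il2ra, in alveolar macrophages lavaged from mouse lung. Members were the genes whose symbol on the array's annotation was Il7r, Il2rg, Il4ra, Il15ra or Il2ra. Of these 5 genes, 4 had a probe set, out of 12393 genes with a probe set in all, and Il2rg was not analysed here. The 4 genes carried 9 probe sets, and for each gene the probe set with the highest mean log2 signal over all 51 arrays was taken as the main one. The genes were chosen because Il7r was already known to differ between the genotypes in these data, so for Il7r that difference is given without a test.

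The study set the macrophage response to conidia, the spores of the mould Aspergillus fumigatus, in normal mice beside that in mice with weakened defence. Each array held the biotin-labelled RNA of 1 sample, amplified by the two-cycle Affymetrix protocol. The KO mice were gp91phox-/-, which lack the catalytic subunit of the phagocyte NADPH oxidase (gene Cybb), and the WT mice were C57Bl/6. KO macrophages were taken untreated at 0 h, and 2 h or 4 h after mock instillation or after conidia at the doses labelled e6 and e7 (7 groups of 3 arrays). WT macrophages were taken in the same 7 conditions (4 arrays each) and also 4 h after polystyrene beads (2 arrays). The labels give the gp91phox-/- genotype without its construct, and age, sex and whether animals were pooled are not given in the sources used here. The WT 4 h mock arrays are called mock by their titles but carry a treatment field that names conidia; they are taken as mock here. Replicates were labelled as biological, so p-values measure the spread between these samples.

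The genotype labels were checked with Cybb, whose signal lay between 109 and 535 on the 21 KO arrays and between 1541 and 4436 on the 30 WT arrays. The 13 measured alveolar macrophage markers had a mean log2 signal per array of 12.6 to 13.0 in KO and 12.3 to 13.0 in WT samples. Single markers differed between the genotypes in both directions. Fabp4 had signals of 4208 to 9940 in KO and 1462 to 3941 in WT samples, a full separation found in 0.248% of probe sets. For Cidec 14 of the 30 WT arrays lay above all KO arrays. Every array had a 2%-trimmed mean signal of 500.2, and arrays of one group correlated at 0.899 to 0.949. A mean log2 signal of neutrophil markers above 7 set 3 WT 4 h arrays apart (mock replicate 3, e6 replicate 4 and e7 replicate 3, at 8.69, 7.92 and 7.53), and values of the members printed here that they move by over 1.5 times are given with and without them. These are bulk samples, so fewer cells of a type and less RNA per cell cannot be told apart.

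Receptors of this family are built from a private chain that binds the cytokine and a shared signalling chain. The common gamma chain, product of Il2rg, joins the IL-7 receptor alpha chain (Il7r), the IL-4 receptor alpha chain (Il4ra), and the IL-2 and IL-15 receptors, whose private alpha chains are made by Il2ra and Il15ra. The chains carry no kinase of their own: JAK kinases bound to them phosphorylate STAT5 after IL-7, IL-2 or IL-15 and STAT6 after IL-4. Il7r is best known for the survival of lymphocytes and also joins the Crlf2 chain to form the receptor for TSLP, a cytokine made by epithelium. In macrophages Il4ra carries the IL-4 and IL-13 signals that induce genes of alternative activation such as Arg1.

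The promoters of Il7r, which separated the genotypes, and of Il4ra, whose mean difference did not pass the test, are printed to show the sequence around each gene's start. They run from 250 bases before to 50 bases after the start in RefSeq's annotation of GRCm38.p6, at chr15:9529827-9530126 on the minus strand for Il7r and at chr7:125552021-125552320 on the plus strand for Il4ra.
Il7r promoter: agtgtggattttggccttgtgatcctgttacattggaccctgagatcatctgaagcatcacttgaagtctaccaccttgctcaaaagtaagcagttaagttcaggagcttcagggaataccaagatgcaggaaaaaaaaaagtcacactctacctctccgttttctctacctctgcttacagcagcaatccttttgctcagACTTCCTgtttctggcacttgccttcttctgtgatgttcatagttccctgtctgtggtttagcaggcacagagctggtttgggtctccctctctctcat
Il4ra promoter: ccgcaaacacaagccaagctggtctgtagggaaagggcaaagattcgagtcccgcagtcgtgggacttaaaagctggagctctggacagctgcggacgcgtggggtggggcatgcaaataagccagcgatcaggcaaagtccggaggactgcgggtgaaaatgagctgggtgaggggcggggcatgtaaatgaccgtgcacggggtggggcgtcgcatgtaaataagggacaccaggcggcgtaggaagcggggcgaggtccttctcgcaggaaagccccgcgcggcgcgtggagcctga
Capitals mark the ETS core searched as AGGAAGT, here read on its other strand, 49 bases before the Il7r start. ETS factors, among them PU.1 and GABP, are known to act at the Il7r gene in lymphocytes. Both strands were searched for 4 patterns: AGGAAGT, the AP-1 pattern TGANTCA, the STAT5-type pattern TTCNNNGAA and the STAT6-type pattern (TTC and GAA with 4 bases between them). The Il7r window also held TTCNNNGAA, 142 bases before the start, and the Il4ra window held none of the 4. Among 32851 RefSeq promoter windows of this length, 9.35% held AGGAAGT, 7.81% TGANTCA, 8.3% TTCNNNGAA and 6.95% the STAT6-type pattern. The Il2ra window held AGGAAGT at 35 bases before the start, and 1 of 2 Il15ra windows held TGANTCA at 30 bases before it. A match is a run of letters and not a measured site.

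Il7r was high on every KO array and low on every WT array. The main probe set, 1448575_at, had signals of 757.7, 792.9 and 645.8 in untreated KO macrophages and of 27.1, 75.4, 39.8 and 44.7 in untreated WT macrophages. All 3 untreated KO arrays lay above all 4 untreated WT arrays, as 14.8% of probe sets did in one direction or the other. Over all conditions the KO signals had a lowest value of 566.6, a median of 1006 and a highest value of 3756, against 27.1, 61.9 and 214.4 in WT samples. The lowest KO array was thus 2.64 times the highest WT array. A complete separation with KO above WT was found in 56 of 22626 probe sets, which is 0.248%, and the opposite one in 2, which is 0.00884%.

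After mock instillation the separation was as wide. At 2 h the Il7r signals were 1006, 847.2 and 1355 in KO mock samples and 33.9, 57.1, 81.6 and 56.5 in WT mock samples. At 4 h they were 653.7, 1822 and 934.0 in KO mock samples and 44.2, 50.2, 140.4 and 46.1 in WT mock samples. The WT array at 140.4 stood away from the other 3 of its group and is one of the arrays with high neutrophil markers.

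The same held after conidia. At the e6 dose the KO signals were 996.2, 2126 and 1333 at 2 h and 1656, 1638 and 3756 at 4 h, against WT signals of 63.0, 70.6, 43.1 and 39.5 at 2 h and 95.4, 96.6, 82.6 and 71.7 at 4 h. At the e7 dose the KO signals were 566.6, 1012 and 1447 at 2 h and 667.5, 1965 and 946.4 at 4 h, against WT signals of 44.7, 99.5, 53.6 and 60.8 at 2 h and 70.3, 120.7, 193.5 and 48.1 at 4 h. The 2 WT bead arrays had 214.4 and 68.2. The highest KO array was e6 replicate 3 at 4 h, and the highest WT array was bead replicate 1. Markers of other cell types were also high on these arrays. KO 4 h e6 replicate 3 had the highest mean log2 signal of 7 monocyte and dendritic cell markers of all arrays (6.76) and the highest of type 2 innate lymphoid markers in KO (5.62). WT bead replicate 1 had the highest WT means of T cell (5.41), type 2 innate lymphoid (5.64), B cell (4.75) and monocyte and dendritic cell markers (6.27). As a sign of RNA quality, the 3' over 5' ratio of control probe sets (log2) was also high on them. It was 3.99 on KO 4 h e6 replicate 3 and 4.11 on WT bead replicate 1, and 5.32 on bead replicate 2, where Il7r was at 68.2. The part of these markers and of RNA quality in the Il7r signals was not tested.

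**Figure D1:**
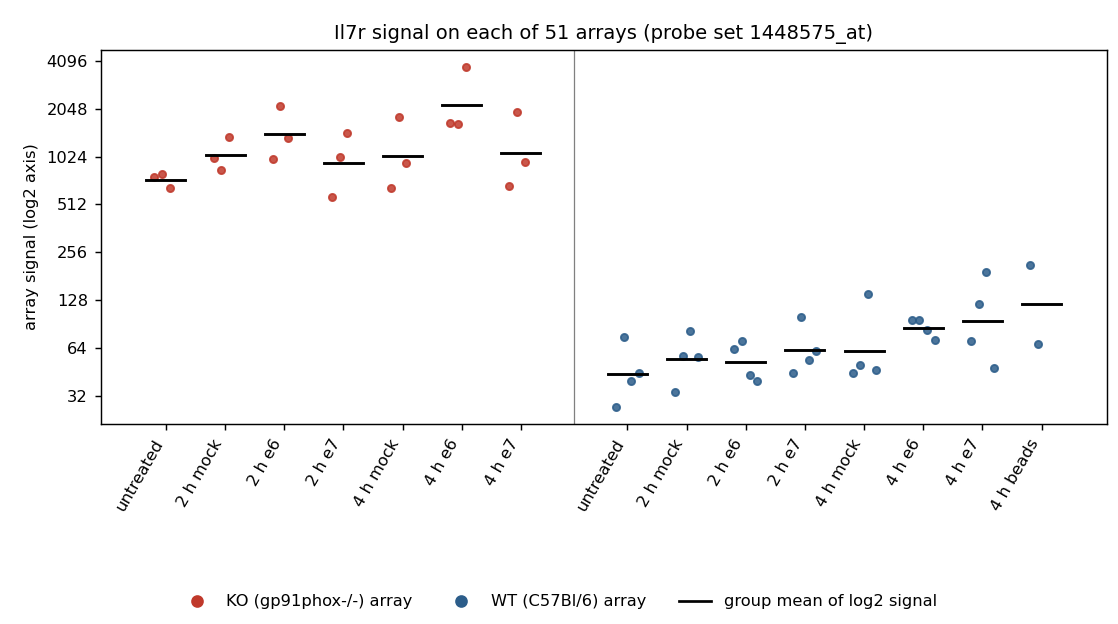
Il7r signal (probe set 1448575_at, log2 axis) on each of the 51 arrays, with the 7 KO groups on the left and the 8 WT groups on the right; points are arrays and bars are group means of log2 signal. All 21 KO arrays lie at 566.6 or above and all 30 WT arrays at 214.4 or below.

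Averaged over the 7 conditions both genotypes share, KO was higher than WT by 4.18 ± 0.18 on the log2 scale (SE), an 18.1-fold difference that is given with no test because Il7r was chosen on it. Per condition the difference was 4.06 untreated, 4.26 at 2 h and 4.07 at 4 h after mock, 4.75 at 2 h and 4.66 at 4 h after e6, and 3.93 at 2 h and 3.51 at 4 h after e7, each ± 0.47 (SE). Without the arrays of high neutrophil markers the mean was 4.27 and the 4 h mock difference 4.47. By size the mean was the 5th largest rise in KO among 12393 genes. The other Il7r probe set, 1448576_at, gave 4.23 ± 0.33 for the same mean, with signals of 67.3 to 429 in KO and 0.546 to 39.1 in WT samples, again with no overlap. The 2 probe sets correlated over arrays at 0.80 within KO (n = 21) and 0.34 within WT (n = 30), where the second one was near the low end of the scale.

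Within a genotype 0 of 19 comparisons of Il7r passed the threshold (1 had an unadjusted p under 0.05, KO 4 h e6 against mock). The threshold was an adjusted p under 0.05 in limma's moderated test with Benjamini-Hochberg adjustment over all 22626 probe sets. The share of all probe sets called gives the background: against mock it was 8.65% for e7 at 2 h, 0.00442% for e7 at 4 h, 0% for e6 at 2 h and 0.0796% for e6 at 4 h in KO, and 1.61%, 15.5%, 0% and 0.00884% in WT, where beads had 1.14%. Between doses (e7 against e6) it was 7.06% at 2 h and 0.897% at 4 h in KO and 0% and 16.4% in WT. In WT it was 3.59% for e7 and 0.327% for e6 against beads. For mock against untreated it was 0.00442% at 2 h and 1.2% at 4 h in KO and 0.00442% and 0.0133% in WT. The e7 response at 4 h minus that at 2 h was called for 1.7% of probe sets in KO and 2.73% in WT.

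The group order of Il7r by geometric mean began with KO 4 h e6 at 2168 and KO 2 h e6 at 1413, followed by KO 4 h e7 at 1075, KO 2 h mock at 1049, KO 4 h mock at 1036, KO 2 h e7 at 939.8 and untreated KO at 729.3. The WT groups followed with beads at 120.9, 4 h e7 at 94.3, 4 h e6 at 85.9, 2 h e7 at 61.7, 4 h mock at 61.6, 2 h mock at 54.7, 2 h e6 at 52.4 and untreated at 43.6. Every pair of neighbours in that order overlapped in its arrays except untreated KO and WT beads, which lay 2.59 log2 units apart.

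The largest differences within KO concerned the e6 dose at 4 h. KO 4 h e6 exceeded KO 4 h mock by 1.07 ± 0.50 log2 (SE; limma adjusted p = 0.628). In KO 4 h e6 the group median of the mean log2 signal was also higher than in KO 4 h mock for T cell (5.70 against 5.15), type 2 innate lymphoid (5.59 against 5.07), B cell (5.16 against 3.88) and monocyte and dendritic cell markers (6.41 against 5.70), and their part was not tested. The 3' over 5' ratio of control probe sets (log2) was 2.86, 1.83 and 3.99 in KO 4 h e6 samples. In KO 4 h mock samples it was 1.41, 1.72 and 2.61, and in KO 4 h e7 samples 1.18, 0.93 and 0.94. Its part was not tested. KO 4 h e7 was below KO 4 h e6 in Il7r by 1.01 (log2 difference -1.01 ± 0.50, limma adjusted p = 0.324). Mock against untreated in KO gave 0.52 ± 0.50 at 2 h and 0.51 ± 0.50 at 4 h (limma adjusted p = 0.871 and 0.685), and all 3 KO 2 h mock arrays lay above all 3 untreated KO arrays, as 18.1% of probe sets did in one direction or the other.

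In WT macrophages the e7 dose at 4 h gave a difference from mock of 0.61 ± 0.44 (limma adjusted p = 0.395), and 0.66 without the arrays of high neutrophil markers, or -0.08 without e7 replicates 2 and 3. The e6 dose at 4 h gave 0.48, and 0.96 without the arrays of high neutrophil markers (limma adjusted p = 0.659). Beads against mock gave 0.97 ± 0.53 (limma adjusted p = 0.339) and rested on 1 high bead array: without bead replicate 1 it was 0.15. Without the arrays of high neutrophil markers it was 1.37 (limma adjusted p = 0.158). The response to conidia did not differ detectably between the genotypes: KO minus WT was -0.33 ± 0.66 for e7 at 2 h and -0.56 ± 0.66 for e7 at 4 h, and 0.49 ± 0.66 and 0.58 ± 0.66 for e6 at 2 h and 4 h, with limma adjusted p-values of 0.853, 0.724, 1 and 0.977. In these tests 1.45%, 0.19%, 0% and 0.00442% of probe sets were called. Without the arrays of high neutrophil markers the e6 difference at 4 h was 0.10 (limma adjusted p = 0.989). These values are for the main probe set. On the other Il7r probe set, 1448576_at, the WT mean log2 signal at 4 h was 3.70 for e7, 3.43 for e6, 4.12 for beads and 4.03 for mock. There the WT e7 and e6 means at 4 h lay below mock, near the low end of the scale.

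The genes whose 15 group means most resembled those of Il7r, among 7094 genes with a mean log2 signal of at least 6, were Mmp12, Ptgir, Plpp3, Mfge8 and Dennd11. Mmp12, macrophage elastase, correlated at 0.995 over groups and 0.968 over the 51 arrays. Ptgir, the prostacyclin receptor, correlated at 0.994 and 0.948, and Plpp3, a lipid phosphate phosphatase, at 0.993 and 0.967. Mfge8, a bridge for the uptake of apoptotic cells, correlated at 0.9901 and 0.9639, and Dennd11 at 0.987 and 0.947. The points share the genotype difference, which sets most of each value.

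Lymphocyte markers were examined beside Il7r, since T cells and innate lymphoid cells express it. Of 13 measured T cell markers, 5 were higher in KO than in WT over the 7 conditions (Cd3d, Cd3g, Cd4, Cd5 and Cd8a) and 1 was lower (Lat), against 33.4% of all probe sets called. Their mean log2 signal per array was 3.46 to 6.16 in KO (median 5.15) and 3.66 to 5.41 in WT samples (median 4.45). Their summed signal was 3929 to 6988 in KO and 3081 to 6852 in WT samples, most of it from Cd2, which differed by 0.03 ± 0.09 (limma adjusted p = 0.804). The defining marker Cd3e had a median signal of 15.9 and a highest signal of 43.7 in KO, and a median of 8.81 and a highest of 46.7 in WT samples, all near the low end of the scale. In untreated macrophages 0 of the 13 T cell markers passed limma's test (1 had an unadjusted p under 0.05). Only 1.99% of all probe sets were called in that comparison, so a count of 0 is near that share.

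Of 6 measured markers of type 2 innate lymphoid cells, 4 were higher in KO over the 7 conditions (Rora, Il13, Klrg1 and Icos), where 21.9% of all probe sets were. In untreated samples 0 passed limma's test (0 also at an unadjusted p under 0.05), where 1.99% of all probe sets were called. Il13 lost its call with quantile normalization and with a floor of 50. Rora was the brightest of those 4, with a signal of 281 to 693 in KO and 133 to 439 in WT samples. The mean log2 signal per array of all 6 markers was 4.09 to 5.62 in KO and 2.87 to 5.64 in WT samples. Of 7 measured B cell markers 2 were higher (Pax5 and Fcer2a) and 0 lower, where 21.9% of all probe sets were higher and 11.6% lower. Their mean log2 signal per array was 3.42 to 5.33 in KO (median 4.12) and 2.58 to 4.75 in WT samples (median 3.66). Of 7 measured monocyte and dendritic cell markers 4 were higher (Flt3, Cd209a, Itgae and Ccr7) and 0 lower, against the same shares of all probe sets. Their mean log2 signal per array was 4.57 to 6.76 in KO (median 5.72) and 3.77 to 6.27 in WT samples (median 4.81). Neutrophil markers had a mean log2 signal per array of 4.37 to 6.94 in KO (median 5.56) and 4.11 to 8.69 in WT samples (median 5.06). Their summed signal had a median of 2186 in KO and 950 in WT samples. Single ones went either way: the median signal of S100a8 was 1520 in KO and 234 in WT samples, and that of Csf3r 313 and 440. The part of these cell types in the Il7r difference was not tested.

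Il4ra was lower in KO than in WT in untreated macrophages, and its difference over the 7 conditions did not pass the test. Its main probe set, 1421034_a_at, had signals of 314.8, 268.2 and 384.0 in untreated KO and of 641.4, 802.7, 749.6 and 677.9 in untreated WT macrophages. No KO array reached the lowest WT array, and 14.8% of probe sets had no overlap in this comparison. The difference was -1.17 ± 0.32 log2 (SE; limma adjusted p = 0.0448), in a comparison where 1.99% of probe sets were called. It passed the threshold narrowly: the adjusted p was 0.0715 when only those 2 groups entered the fit, and 0.0629 to 0.237 without KO replicate 1 or 2 or without any one WT replicate. The 2 other Il4ra probe sets gave -0.97 ± 0.36 (limma adjusted p = 0.166) and -0.65 ± 0.60 (limma adjusted p = 0.716). The 3' over 5' ratio of control probe sets (log2) was 1.18, 1.51 and 3.09 in untreated KO samples. It was 3.92, 3.55, 1.65 and 2.43 in untreated WT samples, and its part was not tested.

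In the mock samples the Il4ra arrays of the genotypes overlapped. The signals were 406.0, 452.1 and 424.9 in KO at 2 h, against 423.5, 386.8, 298.5 and 542.9 in WT, and 475.7, 444.1 and 355.8 in KO at 4 h, against 397.6, 441.0, 424.3 and 416.3 in WT. KO mock samples lay above untreated KO samples by 0.42 ± 0.34 at 2 h and 0.40 ± 0.34 at 4 h (limma adjusted p = 0.836 and 0.622). At 2 h all 3 KO mock arrays exceeded all 3 untreated KO arrays, and 18.1% of probe sets were separated in one direction or the other. These KO arrays overlapped in the other Il4ra probe set 1447858_x_at and did not in 1423996_a_at.

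WT mock samples lay on the other side of untreated WT samples, by -0.83 ± 0.30 at 2 h and -0.77 ± 0.30 at 4 h, with all 4 mock arrays below all 4 untreated arrays each time. Neither passed the threshold (limma adjusted p = 0.312 and 0.506), and 8.41% and 5.86% of probe sets showed such a separation in one direction or the other. In the other Il4ra probe sets, 1447858_x_at and 1423996_a_at, WT mock and untreated arrays overlapped at 2 h and at 4 h. For the main probe set the difference between the changes, KO minus WT, was 1.25 ± 0.45 at 2 h and 1.17 ± 0.45 at 4 h (limma adjusted p = 0.606 and 0.269), so a difference in the effect of mock instillation was not shown. In these tests 0% and 0.137% of probe sets were called. With array weights both passed (limma adjusted p = 0.041 and 0.0316). Over the 7 conditions KO and WT differed by -0.09 ± 0.12 (limma adjusted p = 0.604), and by -0.15 without the arrays of high neutrophil markers (limma adjusted p = 0.264). Over 61 alternatives this difference lay between -0.24 and 0.43, the highest being that of probe set 1423996_a_at. Of these alternatives 1 passed (limma adjusted p = 0.0113). The 3' over 5' ratio of control probe sets (log2) was 1.65 to 3.92 in untreated WT samples. In WT mock samples it was 0.93 to 1.47 at 2 h and 1.19 to 2.34 at 4 h. In KO it was 1.18 to 3.09 untreated, and 0.92 to 1.22 at 2 h and 1.41 to 2.61 at 4 h after mock. Its part in the Il4ra changes was not tested.

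At 4 h after the e7 dose the KO arrays stayed together and the WT arrays split in the main Il4ra probe set. Il4ra had signals of 423.9, 511.2 and 401.1 in KO 4 h e7 samples, a difference from KO mock of 0.07 ± 0.34 (limma adjusted p = 0.987). In WT 4 h e7 samples the signals were 459.2, 148.9, 102.0 and 588.4, against 397.6 to 441.0 in WT 4 h mock samples, so replicates 2 and 3 were low and the other 2 were not. Probe set 1447858_x_at went the other way, with 64.3 to 133.4 in WT 4 h e7 and 39.3 to 80.6 in WT 4 h mock samples. Its mean log2 signals were 6.60 and 6.01. Probe set 1423996_a_at had mean log2 signals of 5.59 and 6.22, in the direction of the main probe set. As a sign of RNA quality, the 3' over 5' ratio of control probe sets (log2) was 2.34 and 3.83 on replicates 2 and 3 and 1.64 and 1.26 on replicates 1 and 4, against 1.19 to 2.34 in WT 4 h mock samples, and its part was not tested.

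For the main Il4ra probe set the WT difference from mock was -0.73 ± 0.30 (limma adjusted p = 0.0924). Without replicates 2 and 3 it was 0.31, and without the arrays of high neutrophil markers it was -0.29. It passed without replicate 1 or replicate 4 (-1.02 and -1.14, limma adjusted p = 0.0168 and 0.00172). The genotypes' responses, KO minus WT, differed by 0.80 ± 0.45 (limma adjusted p = 0.371), and by 0.36 without the arrays of high neutrophil markers (limma adjusted p = 0.779).

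In the other conidia groups Il4ra did not pass the test against mock. At 2 h the e7 samples had signals of 610.5, 458.6 and 431.9 in KO and of 494.0, 465.0, 603.6 and 722.0 in WT. The differences from mock were 0.21 ± 0.34 in KO and 0.48 ± 0.30 in WT (limma adjusted p = 0.732 and 0.459). Ordered by geometric mean, the 15 groups ran between 715.2 in untreated WT and 253.1 in WT 4 h e7 samples, and every pair of neighbours overlapped. The gene most like Il4ra over the 15 groups was Gigyf1, at 0.928, followed by Pnpla2, the adipose triglyceride lipase, at 0.896.

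**Figure D2:**
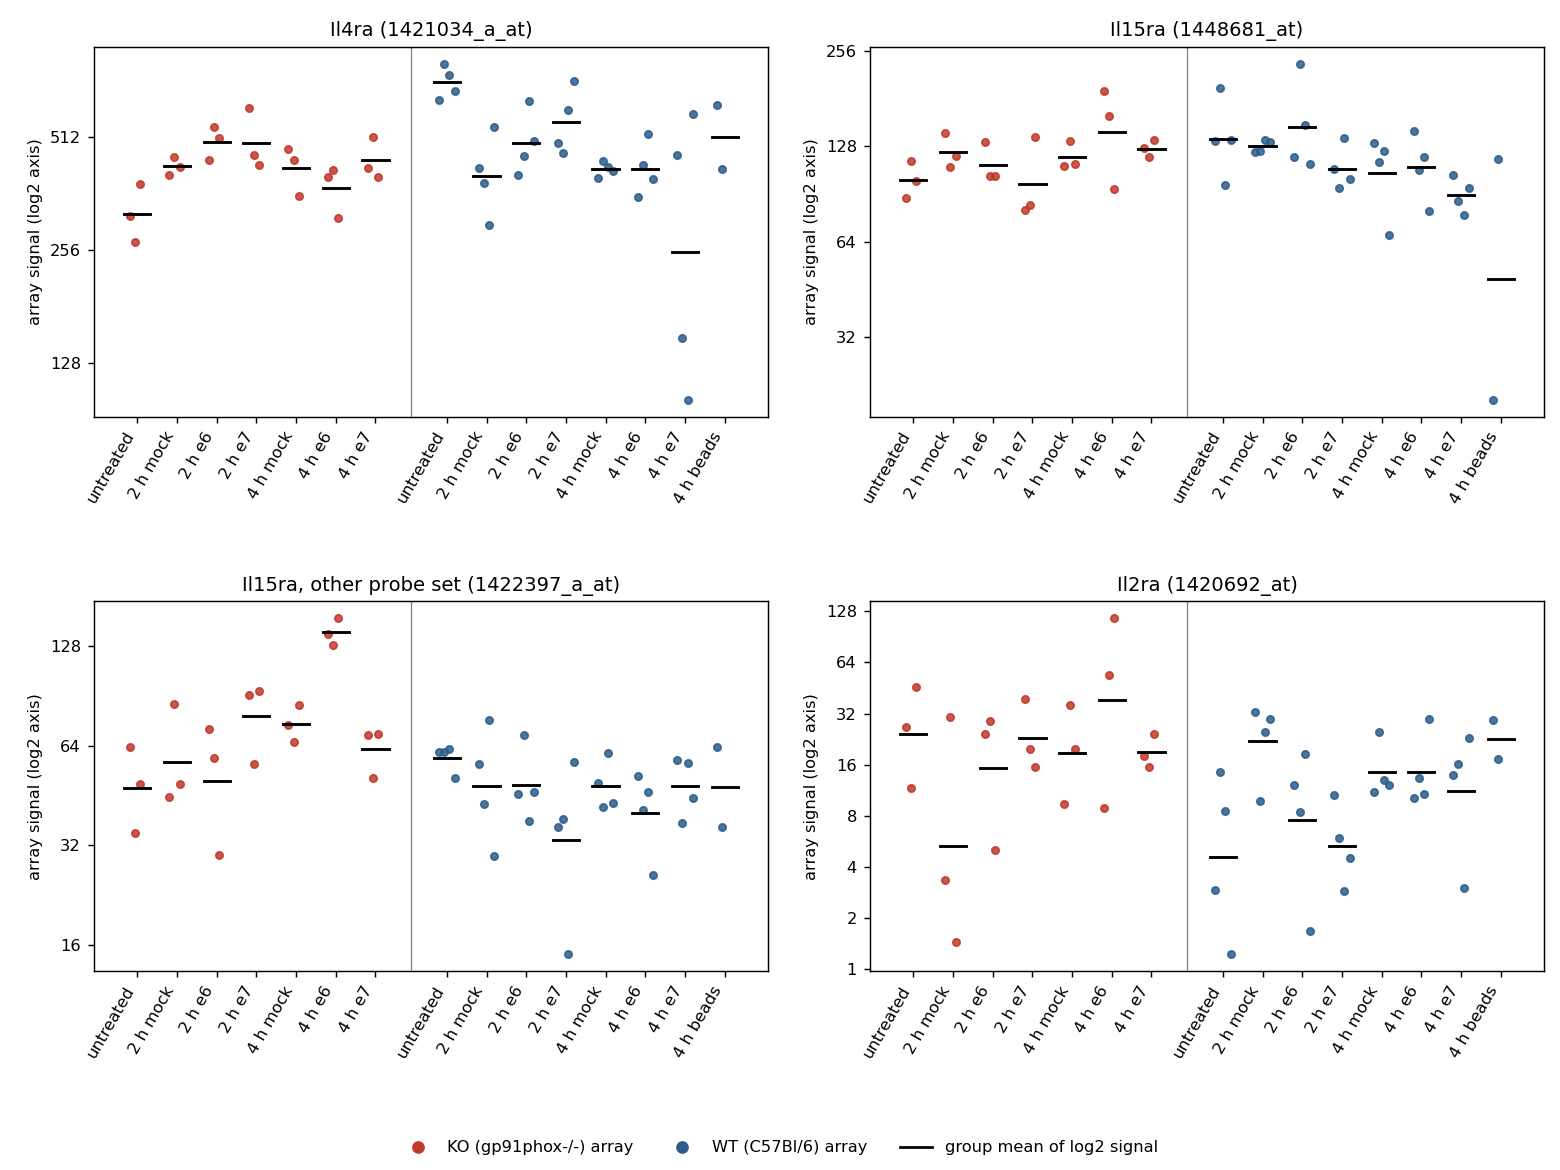
Signal on each array (log2 axes) of the main probe sets of Il4ra, Il15ra and Il2ra and of the other Il15ra probe set, with KO groups left and WT groups right; points are arrays and bars are group means of log2 signal. Il4ra is lowest in 2 of the 4 WT 4 h e7 arrays, and the other Il15ra probe set is highest in the 3 KO 4 h e6 arrays, at 128.8 to 155.1.

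Il15ra gave a different result with each of its 2 probe sets. The main one, 1448681_at, showed no call in any of the 35 comparisons (3 had an unadjusted p under 0.05 in limma's test, all against beads), and its difference between the genotypes over the 7 conditions was -0.00 ± 0.12 (limma adjusted p = 0.991). Its signals were 80.7 to 191 in KO and 67.3 to 233 in WT samples, apart from 1 bead array at 20.3. At 4 h after e7 its signals were 126.2, 117.9 and 133.6 in KO and 103.6, 85.7, 77.4 and 94.2 in WT samples. Those groups did not overlap, as for 19% of probe sets, and the difference was 0.49 ± 0.33 (limma adjusted p = 0.345).

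The other Il15ra probe set, 1422397_a_at, was higher in KO in 2 of the 4 conidia conditions. At 4 h after e6 its signals were 138.8, 128.8 and 155.1 in KO and 51.9, 40.9, 46.4 and 26.1 in WT samples, a difference of 1.81 ± 0.34 (limma adjusted p = 0.000304; 17.5% of probe sets called, 29.3% without overlap), and of 1.61 without the arrays of high neutrophil markers. At 2 h after e7 they were 91.2, 56.5 and 93.5 in KO and 36.5, 38.5, 15.03 and 57.3 in WT samples, a difference of 1.24 ± 0.34 (limma adjusted p = 0.0172; 8.89% called), with 2 of 3 KO arrays above all WT arrays. At 2 h after e6 (71.9, 58.6 and 29.9 in KO, against 45.6, 69.1, 38.0 and 46.4 in WT) and at 4 h after e7 (69.0, 51.2 and 69.5 in KO, against 57.8, 37.4, 56.6 and 44.5 in WT) the genotypes overlapped, with differences of 0.05 ± 0.34 and 0.37 ± 0.34 (limma adjusted p = 0.981 and 0.501). Over the 7 conditions it gave 0.58 ± 0.13 (limma adjusted p = 0.000593), where the main probe set gave -0.00. The 2 probe sets correlated over arrays at 0.27 within KO and -0.01 within WT, so the Il15ra result holds for 1 probe set alone. In KO 4 h e6 samples the 3' over 5' ratio of control probe sets (log2) was 2.86, 1.83 and 3.99. In WT 4 h e6 samples it was 1.81, 1.29, 1.46 and 4.75, and its part was not tested.

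After beads the main Il15ra probe set had 20.3 and 116.6, against 130.9, 114.4, 123.3 and 67.3 in WT 4 h mock samples. The difference of -1.12 ± 0.37 did not pass (limma adjusted p = 0.114) and rested on the first bead array, without which it was 0.14 (limma adjusted p = 0.951). That leaves 1 bead array, assumed to vary like the other groups. The order of the 15 groups ran between 146.6 in WT 2 h e6 and 48.7 in WT bead samples, and all neighbours overlapped. The gene most like Il15ra over groups was C030006K11Rik, at 0.922.

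Il2ra was near the low end of the scale throughout. Its main probe set, 1420692_at, had signals of 1.45 to 117 in KO and 1.22 to 32.7 in WT samples, and only 2 arrays exceeded 50, both of KO 4 h e6. In that group the signals were 8.88, 54.0 and 116.5, against 10.2, 13.4, 10.8 and 29.8 in WT 4 h e6 samples. The 3' over 5' ratio of control probe sets (log2) on those KO arrays was 2.86, 1.83 and 3.99, and its part was not tested. Untreated samples had 26.7, 11.6 and 45.5 in KO and 2.91, 14.5, 8.48 and 1.22 in WT.

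Over the 7 conditions Il2ra was higher in KO by 0.86 ± 0.34 (limma adjusted p = 0.0493), a comparison in which 33.4% of all probe sets were called. The call passed in 20 of 59 alternative settings. With signals under 50 set to 50 the difference was 0.06 (limma adjusted p = 0.345), and with quantile normalization it was 0.46 (limma adjusted p = 0.342). The other Il2ra probe set gave 0.26 ± 0.40 (limma adjusted p = 0.653). In single conditions the difference was positive in 6 of 7, between 0.38 at 4 h after mock and 2.40 ± 0.90 in untreated samples (limma adjusted p = 0.182), and -2.06 ± 0.90 at 2 h after mock (limma adjusted p = 0.295). In limma's test 0 of the 7 passed, and 3 had an unadjusted p under 0.05. In the mock comparisons of the genotypes 2.25% of probe sets were called at 2 h and 4.06% at 4 h, and after conidia 2.04% for e6 at 2 h and 15.6% for e7 at 4 h.

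**Figure D3:**
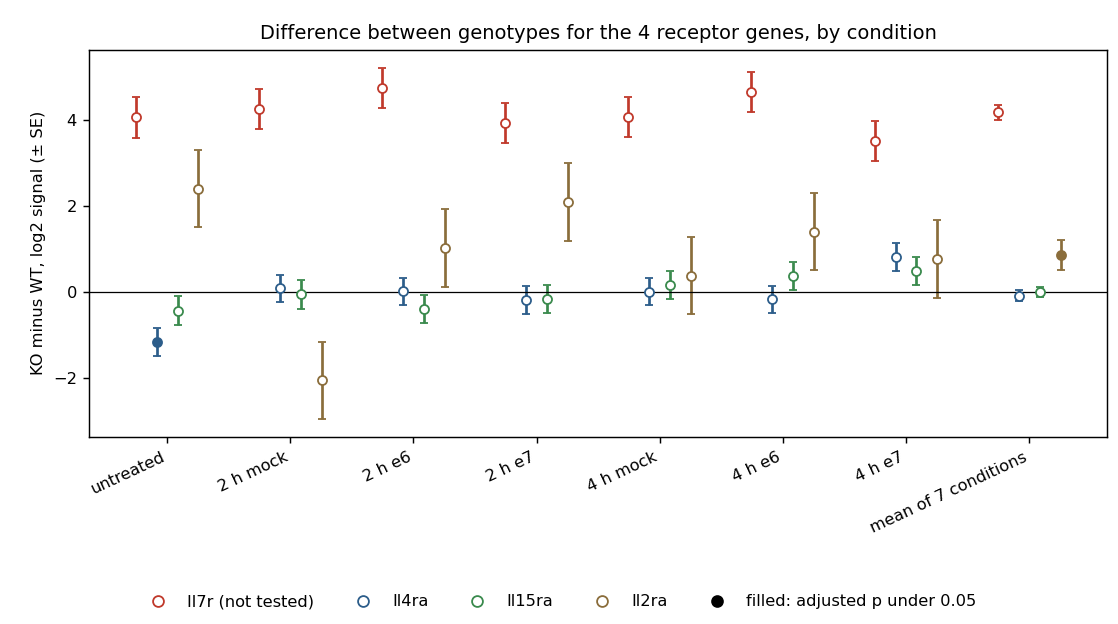
KO minus WT difference of log2 signal (± SE) for the main probe sets of the 4 genes in each of the 7 shared conditions and for their mean; filled points have an adjusted p under 0.05, and Il7r was not tested. Il7r lies between 3.51 and 4.75 in every condition, Il4ra is at -1.17 in untreated samples, and Il15ra and Il4ra have a mean near 0.

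Il7r correlated little with the other 3 genes in KO and negatively with Il4ra in WT. Over the KO arrays the Pearson correlation of Il7r was -0.02 with Il4ra, 0.25 with Il15ra and 0.15 with Il2ra (n = 21). Over the WT arrays it was -0.50, -0.45 and 0.17 (n = 30), with Spearman values of -0.37, -0.24 and 0.15. Without bead replicate 1 the WT Pearson value was -0.65 with Il4ra and -0.16 with Il15ra (n = 29), and without the arrays of high neutrophil markers it was -0.33 with Il4ra (n = 27). The WT arrays span 8 groups, so these values are a description.

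The wider pathway was followed through 52 listed genes, of which 51 were measured. The lists were written by hand with earlier results of these data known, so their counts are a description. Over the 7 conditions 15 were higher and 6 lower in KO, which is 41.2% called, against 33.4% of all probe sets (21.9% higher and 11.6% lower). Their median difference was 0.20, against 0.09 over all genes. With signals under 50 set to 50 the counts were 8 higher and 6 lower, and with quantile normalization 9 higher and 8 lower. Without the arrays of high neutrophil markers they were 17 higher and 7 lower.

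Among 8 ligands 3 were higher in KO, where 21.9% of all probe sets were: Il2 by 1.63 ± 0.42, Il13 by 0.52 ± 0.15 and Tslp by 1.31 ± 0.42 (limma adjusted p = 0.00272, 0.00732 and 0.0141). All 3 were near the low end of the scale, with median signals in KO of 20.7 for Il2, 7.96 for Il13 and 7.61 for Tslp, and none passed with a floor of 50, nor Il13 and Tslp with quantile normalization. Il7, the ligand of the IL-7 receptor, differed by 0.32 ± 0.22 (limma adjusted p = 0.267), and Il15 by 0.22 ± 0.10 (limma adjusted p = 0.0845).

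Of 6 other receptor chains, Il21r (1.38 ± 0.35) and the decoy receptor Il13ra2 (0.98 ± 0.30) were higher in KO (limma adjusted p = 0.00235 and 0.0111), both with a median signal in KO below 50. Neither passed with a floor of 50, nor Il13ra2 with quantile normalization. Of all probe sets 21.9% were higher in KO in this comparison and 11.6% lower. Crlf2, the partner of Il7r in the TSLP receptor, had signals of 1601 to 2995 in KO and 914 to 3402 in WT samples and differed by 0.18 ± 0.09 (limma adjusted p = 0.0963). Il13ra1, which pairs with Il4ra, differed by 0.07 ± 0.06 (limma adjusted p = 0.4).

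Of 8 measured kinases and STATs, 1 was higher in KO: Jak1, the kinase that partners Jak3 in these receptors, by 0.26 ± 0.09 (limma adjusted p = 0.0208; 0.18 and not called with the ratio of 3' to 5' control signals as a covariate). Jak3, which binds the common gamma chain, differed by -0.08 ± 0.14 (limma adjusted p = 0.668), Stat5a by -0.18 ± 0.09, Stat5b by -0.08 ± 0.08 and Stat6 by -0.07 ± 0.08 (limma adjusted p = 0.0988, 0.474 and 0.502). Among 5 adaptors Irs1 and Gab2 were higher and Irs2 and Pik3r1 lower, the last by -0.52 ± 0.08 (limma adjusted p = 2.03e-06). For the kinases and STATs, adaptors and feedback genes the background was 21.9% of all probe sets higher in KO and 11.6% lower. Gab2 passed in 34 of 59 alternative settings, Irs1 was lost with quantile normalization and with a floor of 50, and Irs2 was lost without KO 2 h e6 replicate 2, KO 2 h mock replicate 1 or KO 4 h mock replicate 2. Of 6 feedback genes 1 was lower, Socs2 by -0.34 ± 0.07 (limma adjusted p = 0.000135). Cish, a STAT5 target, did not pass over the 7 conditions (0.02 ± 0.09, limma adjusted p = 0.867) but was lower in untreated KO by -0.98 ± 0.24 (limma adjusted p = 0.0188). That call was lost with only the 2 groups in the fit (0.175) and without any one KO replicate or WT replicate 2 (0.054 to 0.0886).

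Of 9 survival and growth targets, Ccnd2 was higher in KO (0.20 ± 0.06, limma adjusted p = 0.0102), where 21.9% of all probe sets were higher and 11.6% lower. Mcl1 (-0.15 ± 0.05) and Myc (-0.62 ± 0.14) were lower (limma adjusted p = 0.0239 and 0.00053), Mcl1 not with the 3' to 5' covariate. Bcl2, the survival factor induced through Il7r in lymphocytes, differed by 0.23 ± 0.38 (limma adjusted p = 0.662) and Bcl2l1 by 0.02 ± 0.08 (limma adjusted p = 0.844).

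Of 9 genes known as IL-4 and IL-13 targets in macrophages, 6 were higher and 1 lower in KO over the 7 conditions, where 21.9% of all probe sets were higher and 11.6% lower, and their median difference was 0.92, against 0.09 over all genes. Ccl22, a chemokine that attracts T cells, had signals of 162 to 462 in KO and 34.6 to 174 in WT samples and was higher by 1.74 ± 0.11 (limma adjusted p = 3.07e-15). It was higher in each of the 7 conditions, by 1.20 at 4 h after mock to 2.18 at 2 h after mock. Ccl17, which shares its receptor, was higher by 1.19 ± 0.13 (limma adjusted p = 2.09e-09). As this list was written with earlier results of these data known, its share of higher genes is no independent support.

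Arg1, arginase, was higher in KO by 3.64 ± 0.61 (limma adjusted p = 1.37e-05), with signals of 6.16 to 1939 in KO and 1.15 to 68.0 in WT samples, so the KO arrays spread widely. Retnla (1.28 ± 0.42), the scavenger receptor gene Cd36 (0.49 ± 0.07) and the low-affinity IgE receptor gene Fcer2a (0.92 ± 0.18) were also higher (limma adjusted p = 0.0163, 6.57e-07 and 0.000104). Retnla lost its call with quantile normalization and Fcer2a with a floor of 50. Mrc1, the mannose receptor, was lower by -0.10 ± 0.04 (limma adjusted p = 0.0387), a call that passed in 39 of 59 alternative settings, and Chil3 differed by 0.05 ± 0.05 (limma adjusted p = 0.511). With a floor of 50, 5 of the 9 were higher and 1 lower.

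In the responses to conidia the pathway genes were called about as often as other genes. At 2 h after e7, 5 of the 51 were higher than after mock in KO macrophages, 9.8% against 8.65% of all probe sets. Stat5b rose by 1.01 ± 0.22 and Stat3 by 0.95 ± 0.23 (limma adjusted p = 0.00448 and 0.0101), the second not without e7 replicate 1 or mock replicate 2. The others were Il2, Il13 and Fcer2a, with low signals; Il13 passed in 5 and Fcer2a in 6 of 13 alternative settings. In WT macrophages 1 of 51 was higher at 2 h after e7, 1.96% against 1.61%: Cish rose by 0.97 ± 0.22 (limma adjusted p = 0.0169), a call lost without e7 replicate 4 or mock replicate 2 or 3. With only the groups compared in each fit, 3 of the 51 were called in KO and 0 in WT.

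In KO at 4 h after e7, and at both times after e6 in both genotypes, limma's test called 0 of the 51, where it called at most 0.0796% of all probe sets; 3 to 5 of the 51 had an unadjusted p under 0.05 in each of these comparisons. The differences between the genotypes' responses were called for 0 of the 51 in each of the 4 tests, with 9, 8, 5 and 1 at an unadjusted p under 0.05 for e7 at 2 h and 4 h and e6 at 2 h and 4 h. In the same order 1.45%, 0.19%, 0% and 0.00442% of all probe sets were called, so counts of 0 are near those shares. The share of all probe sets at an unadjusted p under 0.05 is not given here.

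At 4 h after e7 in WT macrophages, 3 of 51 were higher and 6 lower than after mock, which is 17.6%, against 15.5% of all probe sets. Socs3, an inhibitor of JAK signalling, was higher by 2.62 ± 0.52 (limma adjusted p = 0.000702), Pim1 by 1.16 ± 0.26 (limma adjusted p = 0.00248) and Shc1 by 0.54 ± 0.19 (limma adjusted p = 0.0484). Myc (-1.19 ± 0.33), the phosphatase gene Ptpn6 (-0.997 ± 0.254) and Crlf2 (-0.82 ± 0.21) were lower (limma adjusted p = 0.0107, 0.006 and 0.00654), as were Il15, Jak1 and Stat6 by -0.76, -0.65 and -0.57. Myc, Ptpn6 and Crlf2 also lost the call without e7 replicate 3, and Jak1, Stat6 and Shc1 passed in 7, 8 and 9 of 18 alternative settings. Without e7 replicates 2 and 3, which were low in the main Il4ra probe set, 1 was higher and 0 were lower. Without the arrays of high neutrophil markers 2 were higher and 0 lower, and with only those 2 groups in the fit 0 of the 51 were called.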

How the data were processed

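The samples were 51 Affymetrix mouse arrays of alveolar macrophage RNA in 15 groups taken from the sample titles. The deposited files hold one linear intensity per probe set; the submitters' processing notes name GCOS and RMA without a role, and the equal trimmed means of all arrays are what a global scaling by the authors gives. Probe-level files, detection calls and the genome build are not given in the sources used here. Signals were used as log2 intensity with no pseudocount, filter or further scaling.

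One limma 3.58.1 model (R 4.3.3) with a mean per group was fitted over all 51 arrays and 22626 probe sets, after leaving out 64 controls, with moderated two-sided tests and Benjamini-Hochberg adjustment within each comparison over all probe sets. Of 22690 probe sets, 20380 had 1 gene symbol in the platform annotation, 691 several and 1555 none. There were 29 comparisons planned and 6 added after values were seen (the 4 genotype comparisons after conidia and the 2 differences of mock effects). Members and gene lists were chosen with earlier results of these data known, and the pathway and marker lists were written by hand. Genes were named as the members, the 5 most like each member over group means, and the listed genes. The number of arrays limits the precision, and low signals are the least precise. The model was tested on simulated data. Alternatives were quantile normalization, a pseudocount of 16, a floor of 50, a filter at a mean log2 of 6, array weights, a 3'/5' covariate, a replicate block, other probe sets, only the groups compared, and leaving out arrays. Same-numbered arrays did not deviate together (median correlation 0.00748 in KO and 0.0169 in WT), so the numbers were not taken as pairs.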

Additional observations from a re-analysis of the deposited data

Results flagged for a closer look

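Il7r in WT 4 h mock replicate 3 was at a signal of 140.4, away from the other 3 arrays of its group at 44.2, 50.2 and 46.1; on the log2 scale the gap was 0.89 of the group's range, above Dixon's 95% critical value for 4 samples. Such a test flags about 1 group in 20 by chance. That array also had the highest mean log2 signal of neutrophil markers, 8.69, and the part of neutrophils in the Il7r value was not tested.

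In its main probe set, Il4ra in 2 h mock samples lay on opposite sides of untreated samples in the 2 genotypes: every KO mock array lay above every untreated KO array and every WT mock array below every untreated WT array. Such a separation, in one direction or the other, was found in 18.1% of probe sets in KO and 8.41% in WT. The difference between the changes, KO minus WT, was 1.25 on the log2 scale. The test of that difference itself did not pass (limma adjusted p = 0.606), and 0% of probe sets were called in it. In the other Il4ra probe sets, 1447858_x_at and 1423996_a_at, WT mock and untreated arrays overlapped at 2 h. KO mock and untreated arrays overlapped in 1447858_x_at and did not in 1423996_a_at. The 3' over 5' ratio of control probe sets (log2) was 1.65 to 3.92 in untreated WT and 0.93 to 1.47 in WT 2 h mock samples. In KO it was 1.18 to 3.09 untreated and 0.92 to 1.22 at 2 h after mock. Its part was not tested.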

How the results depend on the processing

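Over the alternatives 2708 values of the 4 genes were recomputed. Of these, 2621 stayed on their side of the threshold or, where untested, kept their direction within the spread. Among the 2621 were 229 uncalled ones that changed sign. Of the rest, 48 called ones lost the call, 33 gained one, 4 untested ones moved by more than the spread, and 2 reversed. The KO minus WT mean of Il7r ranged between 3.85 and 4.28 over 60 alternatives. The 2 reversals were Il15ra in its other probe set, at 1.24 for KO against WT at 2 h after e7 and 0.58 over the 7 conditions. Among pathway genes Stat6 reversed in WT 4 h e7 against mock, to 0.014, without e7 replicates 2 and 3. The number of the 4 genes called over the 7 conditions was 0 instead of 1 with the 3'/5' covariate, the floor, the filter, only the groups compared, quantile normalization, the replicate block (Il2ra 0.86, limma adjusted p = 0.0576) or the arrays of high neutrophil markers left out, and in untreated samples 0 instead of 1 with only the groups compared. The number was 1 instead of 0 with the floor in KO 4 h e6 against mock, KO 4 h e7 against e6 and KO against WT at 4 h after e6; with array weights in both differences of mock effects, the KO minus WT response to e7 at 2 h, KO against WT at 4 h after e7, WT 2 h mock against untreated and the later minus earlier WT e7 response; with the covariate in WT 4 h e7 against beads and the later minus earlier WT e7 response; and with the filter in that response and in WT 4 h e7 against mock, against e6 and against KO. Leaving out 1 array gave 0 to 1 in each comparison. The replicate block changed no other call of the 4 genes. The causes were not tested. Low signals limit Il2ra and most ligands.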
